A study of Mus musculus with 4 samples.

Results

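The genes described here encode the mouse major histocompatibility complex (MHC, called H2 in mice) and the proteins that load its molecules with peptide. They were chosen by name: every symbol that starts with H2-, plus B2m, Tap1, Tap2, Tapbp, Psmb8, Psmb9, Psmb10, Ciita, Cd74 and Nlrc5. That gave 55 genes, 45 with an H2- symbol and 10 others, of 54152 symbols in the deposited table. RNA had been sequenced from the whole uterus of pregnant C57 mice at day 4, with 2 libraries from the p38α dd genotype and 2 from p38α ff. The series title contrasts p38α knockout with wild-type uteri, and dd is taken here as the knockout and ff as its floxed control. The sources used here do not give the Cre line, the deleted exons, the number of animals behind a library or the H2 haplotype of the mice. The labels do not say whether replicates are separate animals, so a p-value here reflects the spread among the libraries alone, and that spread may be technical.

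MHC class I molecules are a heavy chain paired with β2-microglobulin and display peptides cut from cytosolic proteins, which are carried into the endoplasmic reticulum by the TAP transporter. MHC class II molecules are an α and a β chain, displayed mainly by dendritic cells, macrophages and B cells, and present peptides from the endocytic route. Nlrc5 is the transactivator of class I genes and Ciita that of class II genes. In the uterus, antigen-presenting cells and natural killer cells read or carry these molecules around the time the embryo implants, and the Q region molecules are also known from the mouse preimplantation embryo.

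The libraries labelled dd held 24619850 and 30868922 counts, and those labelled ff held 32451670 and 30202955. The MHC set took 0.344% and 0.534% of the counts in dd replicates 1 and 2, against 0.341% and 0.386% in ff replicates 1 and 2. Mapk14, which encodes p38α, had 2481 and 3429 counts in the dd libraries, against 3074 and 2710 in the ff libraries. As CPM, counts scaled to each library's TMM-adjusted size, that was 105 and 113 in dd, against 92.3 and 87.0 in ff. The log2 fold change was 0.28 ± 0.09 (SE), so the counts over the whole gene were not lower in the libraries labelled dd, and whether any exon is missing from the transcripts cannot be read from them. Every direction below therefore refers to the libraries labelled dd relative to those labelled ff.

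Of the 55 genes, 36 had enough counts to be tested. The other 19 stayed under the low-count filter. Of those, 10 had no count in any library, where 3 counts correspond to between 0.0901 and 0.127 CPM, and 9 had 1 to 29 counts in all. H2-Ea-ps, the E α chain gene, had no count in any library and is annotated as a polymorphic pseudogene; it is known to be inactive in C57BL strains. H2-T3, which encodes the thymus leukaemia antigen, had 8 and 5 counts in dd, against 0 and 4 in ff. The H2-M10 and H2-M1 genes, described from the mouse vomeronasal organ, had at most 11 counts each over the 4 libraries.

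Among the 36 tested genes, 1 rose and 1 fell in the libraries labelled dd (edgeR quasi-likelihood test, Benjamini-Hochberg adjusted p under 0.05 over all genes tested). That is 5.56% of the set, beside 8.39% of the 18530 genes tested (4.52% higher and 3.86% lower). H2-Bl was the gene that rose and H2-M5 the gene that fell, and neither was called with any 1 of the 4 libraries left out. In 10 of the 36 genes both dd libraries lay above both ff libraries, and in 16 both lay below, which is 27.8% and 44.4% of the set, beside 31.6% and 31.3% of all genes tested. The median log2 fold change was -0.14 in the set and 0.00 over all genes. DESeq2's Wald test called 5 of the set higher and 4 lower, beside 7.88% and 6.97% of all genes it tested. In bulk tissue, fewer cells of a type and less RNA per cell cannot be told apart.

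**Figure D1:**
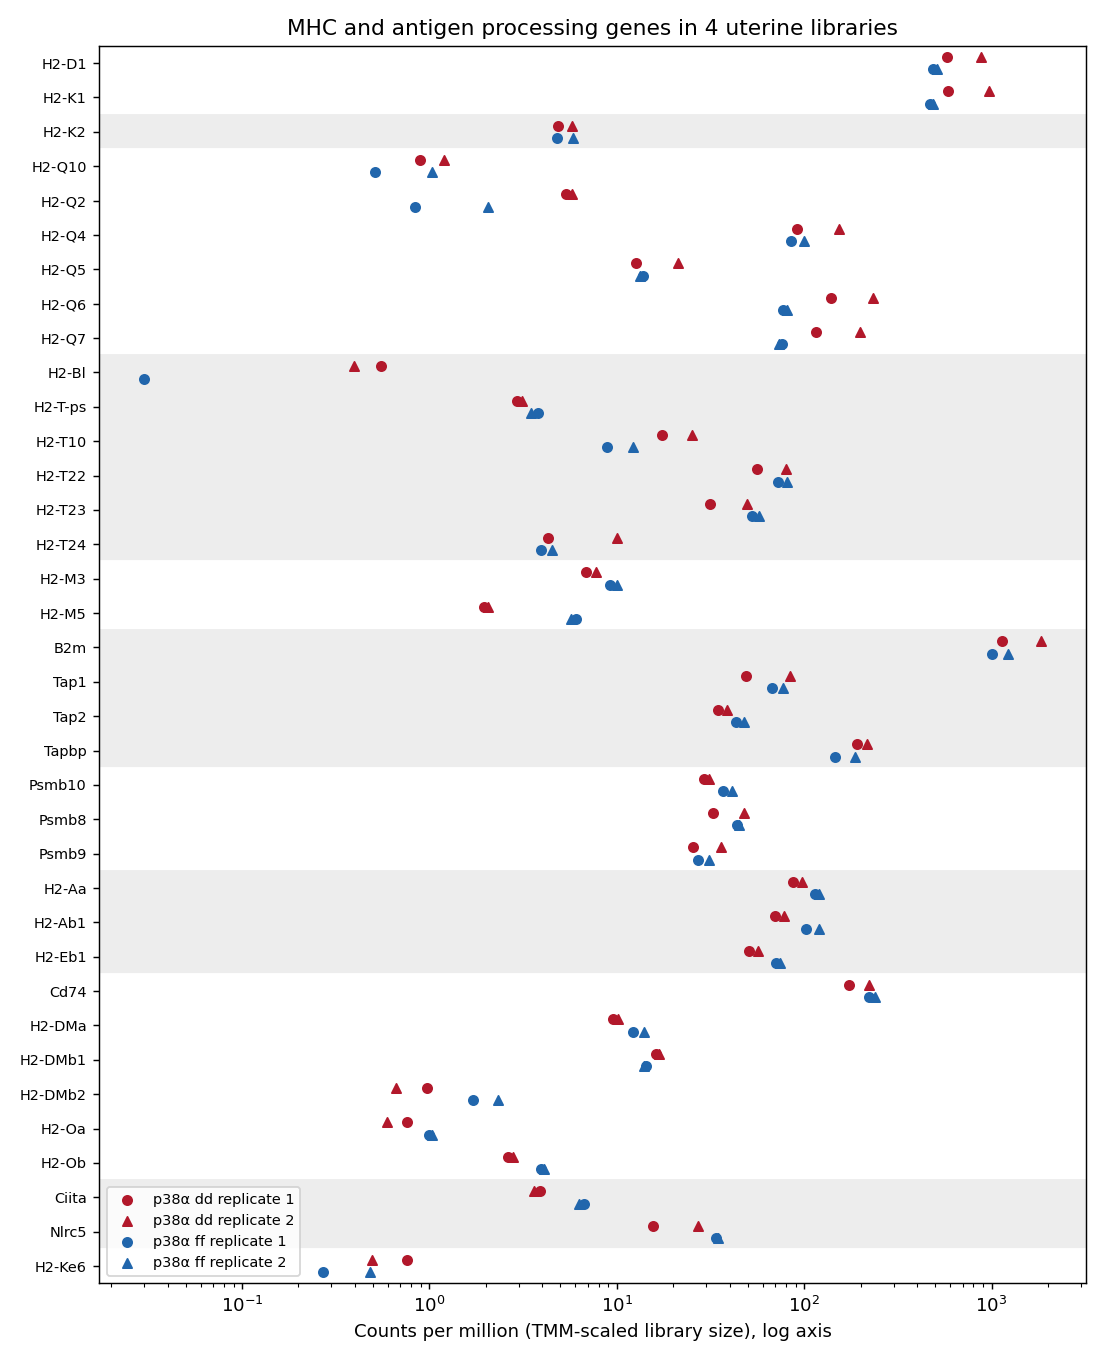
CPM of each of the 36 tested genes on a log axis, with dd replicates in red above ff replicates in blue, ordered by role from class I heavy chains to regulators, with H2-Ke6 last. B2m is highest in all 4 libraries, between 1002 and 1829 CPM, and H2-Bl, whose ff replicate 2 is at 0 and not drawn, is lowest. The bands shade neighbouring roles.

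The class Ia heavy chains H2-K1 and H2-D1 are the classical peptide-presenting molecules of nearly all nucleated cells. H2-K1 had 583 and 969.5 CPM in dd, against 467 and 489.8 CPM in ff. H2-D1 had 579 and 881 CPM in dd, against 489 and 514 CPM in ff. For both genes the dd libraries lay above the ff libraries, and dd replicate 2 stood well above dd replicate 1. The log2 fold change was 0.70 ± 0.26 (SE) for H2-K1 (edgeR adjusted p = 0.158) and 0.54 ± 0.22 for H2-D1 (edgeR adjusted p = 0.185). Neither passed edgeR's test. DESeq2's Wald test called H2-K1 (adjusted p = 0.0489) and did not call H2-D1 (adjusted p = 0.104). The authors' unadjusted p-values were 0.130 for H2-K1 and 0.238 for H2-D1. Without dd replicate 2 these values were 0.29 and 0.21. Without dd replicate 1 they were 1.03 and 0.82, and H2-K1 then passed the test (edgeR adjusted p = 0.0455).

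The Q region genes encode class Ib heavy chains, which vary less between strains than class Ia. H2-Q6 and H2-Q7 encode forms of Qa-2, a molecule that can be anchored to the membrane by a lipid. H2-Q6 had 139.7 and 232 CPM in dd, against 77.2 and 80.6 CPM in ff. H2-Q7 had 115 and 199 CPM in dd, against 76.2 and 73.3 CPM in ff. Both showed separate groups with wide dd spread, at log2 fold changes of 1.24 ± 0.25 for H2-Q6 (edgeR adjusted p = 0.0520) and 1.07 ± 0.27 for H2-Q7 (edgeR adjusted p = 0.0780). Without dd replicate 1 both passed (edgeR adjusted p = 0.0210 and 0.0242, log2 1.56 and 1.42), and without dd replicate 2 the log2 values were 0.83 and 0.62. In the authors' deposited table H2-Q6 has a fold of 2.36 and an unadjusted p-value of 0.00802, and H2-Q7 a fold of 2.11 and an unadjusted p-value of 0.0208.

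H2-Q4 had 91.8 and 153 CPM in dd, against 85.3 and 99.5 CPM in ff. H2-Q5 had 12.6 and 21.1 CPM in dd, against 13.8 and 13.3 CPM in ff. In both genes the groups overlapped and dd replicate 2 was the high library, with log2 fold changes of 0.41 ± 0.26 for H2-Q4 and 0.32 ± 0.27 for H2-Q5. Without dd replicate 2 these were -0.01 and -0.10, below 0. H2-Q2, named here after its values were seen, had 5.38 and 5.78 CPM in dd, against 0.841 and 2.05 CPM in ff. Its dd libraries agreed closely and lay above both ff libraries, which differed from each other by more, at a log2 fold change of 1.95 ± 0.45 (edgeR adjusted p = 0.0688). It passed with ff replicate 2 left out (edgeR adjusted p = 0.0315, log2 2.72) but not with any other library left out, and with ff replicate 1 left out the log2 value was 1.44 (edgeR adjusted p = 0.117). All 6 tested Q region genes had a log2 fold change above 0, with a median of 0.76, and none passed edgeR's test, while 3 had an unadjusted p under 0.05, as did 14.9% of all genes tested in the higher direction, and DESeq2 called 3.

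How far these class I genes can be told apart in short reads limits their values, because the genes are near copies of each other. The coding sequences of H2-Q7 and H2-Q6 were 95.4% identical over 978 aligned bases, those of H2-K1 and H2-D1 91.5%, and those of H2-Q7 and H2-K1 88.2% (GENCODE vM21 transcripts on GRCm38, the mm10 build). One stretch of 90 coding bases is shown for 5 heavy chain genes, 5′ to 3′ on the coding strand, to show how little separates them. Capitals mark bases that differ from H2-Q7: 3 in H2-Q6, 10 in H2-Q4, 8 in H2-K1 and 10 in H2-D1. The windows lie at chr17:35439538-35439627 on the plus strand (H2-Q7), chr17:35425194-35425283 on the plus strand (H2-Q6), chr17:35379990-35380079 on the plus strand (H2-Q4), chr17:33999828-33999917 on the minus strand (H2-K1) and chr17:35263465-35263554 on the plus strand (H2-D1), all in coding exons.
H2-Q7: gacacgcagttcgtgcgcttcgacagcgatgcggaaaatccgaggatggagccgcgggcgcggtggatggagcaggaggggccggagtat
H2-Q6: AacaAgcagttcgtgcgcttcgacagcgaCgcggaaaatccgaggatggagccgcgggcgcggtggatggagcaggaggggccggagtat
H2-Q4: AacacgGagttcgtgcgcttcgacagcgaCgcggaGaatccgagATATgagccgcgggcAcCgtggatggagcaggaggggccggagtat
H2-K1: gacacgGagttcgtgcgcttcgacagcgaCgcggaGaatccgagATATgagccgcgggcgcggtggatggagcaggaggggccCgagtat
H2-D1: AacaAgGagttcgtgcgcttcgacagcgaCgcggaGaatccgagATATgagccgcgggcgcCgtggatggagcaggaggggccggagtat

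Every stretch of 50 bases of each gene's annotated transcripts was looked up in the transcripts of all other genes. The share found elsewhere was 31.97% for H2-Q6, 26.4% for H2-Q7, 36.4% for H2-Q5, 21.8% for H2-Q4, 16.1% for H2-Q2, 9.63% for H2-K1 and 12.8% for H2-D1. It was 32.9% for H2-T10 and 34.5% for H2-T22, nearly all of it shared between those 2 genes. For H2-DMb2 it was 24.8%, with 21.2% shared with H2-DMb1, and for H2-DMb1 22.7%, all of it shared with H2-DMb2. The share was 29.4% for H2-T-ps and 70.5% for H2-Ke6, the latter shared with Gm20427. With stretches of 100 bases it was 10.8% for H2-Q6, 11.98% for H2-Q7 and 0.957% for H2-K1. No 50-base stretch of B2m, H2-Ab1, H2-Eb1, Cd74, Ciita or Nlrc5 occurred elsewhere, and in H2-M5 0.886% did. The sources used here do not give the read length, the treatment of reads that map to several genes or the use of strand. The split of counts is therefore uncertain among the Q genes, between H2-T10 and H2-T22, between H2-DMb1 and H2-DMb2, and between H2-Ke6 and Gm20427. The mm10 reference carries the H2 haplotype of C57BL/6J, and reads from another haplotype would align less completely to its most variable genes. Which haplotype the mice carried was not tested.

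The 300 bases around the start of a gene (250 before to 50 after) were available from RefSeq on GRCm38.p6 for 38 of the 55 genes. The promoters of H2-K1, H2-D1, H2-Q6 and H2-Q7 are shown because these 4 genes had the same order of libraries. In each, dd replicate 2 was highest, dd replicate 1 next and both ff libraries lowest. H2-Q2, H2-T10, Tapbp and H2-DMb1 had that order too and are not shown. Capitals mark every stretch of at least 12 bases that all 4 promoters share, and CCAAT (or ATTGG, its reverse complement) and TGACG. The sequences run 5′ to 3′ on each gene's strand, from chr17:34000298-34000597 on the minus strand (H2-K1), chr17:35262844-35263143 on the plus strand (H2-D1), chr17:35424600-35424899 on the plus strand (H2-Q6) and chr17:35438905-35439204 on the plus strand (H2-Q7).
H2-K1: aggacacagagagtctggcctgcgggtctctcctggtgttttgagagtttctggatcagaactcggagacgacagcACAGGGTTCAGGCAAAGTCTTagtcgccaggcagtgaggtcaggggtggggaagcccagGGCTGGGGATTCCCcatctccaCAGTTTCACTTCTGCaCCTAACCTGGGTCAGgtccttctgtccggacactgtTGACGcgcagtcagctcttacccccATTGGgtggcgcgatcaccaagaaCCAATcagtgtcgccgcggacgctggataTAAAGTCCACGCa
H2-D1: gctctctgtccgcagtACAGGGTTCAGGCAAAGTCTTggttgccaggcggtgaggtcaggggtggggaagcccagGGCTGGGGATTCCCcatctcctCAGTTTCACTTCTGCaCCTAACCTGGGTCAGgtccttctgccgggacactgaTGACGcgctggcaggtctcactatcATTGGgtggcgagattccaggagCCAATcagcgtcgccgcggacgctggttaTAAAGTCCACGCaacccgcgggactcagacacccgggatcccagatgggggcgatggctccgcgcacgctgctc
H2-Q6: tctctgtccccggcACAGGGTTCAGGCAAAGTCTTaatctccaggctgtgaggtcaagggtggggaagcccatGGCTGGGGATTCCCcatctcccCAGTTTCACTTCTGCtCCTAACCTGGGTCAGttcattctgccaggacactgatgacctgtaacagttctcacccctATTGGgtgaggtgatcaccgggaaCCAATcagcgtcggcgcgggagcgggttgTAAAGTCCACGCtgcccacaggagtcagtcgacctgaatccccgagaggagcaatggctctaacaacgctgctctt
H2-Q7: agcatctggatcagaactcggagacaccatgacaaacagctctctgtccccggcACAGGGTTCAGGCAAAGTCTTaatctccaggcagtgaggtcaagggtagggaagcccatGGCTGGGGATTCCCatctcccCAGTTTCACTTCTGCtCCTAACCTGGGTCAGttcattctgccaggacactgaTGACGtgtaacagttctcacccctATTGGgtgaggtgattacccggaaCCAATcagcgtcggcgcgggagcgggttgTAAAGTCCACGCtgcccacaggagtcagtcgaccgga

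The 4 promoters shared 5 such stretches, in the same order. ACAGGGTTCAGGCAAAGTCTT stood first, and in 5 of 27025 RefSeq promoters on either strand, the fifth being H2-Q4. GGCTGGGGATTCCC, which holds a κB-like core, stood in these 4 alone. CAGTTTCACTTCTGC, which holds an interferon-response-like core, stood in 6 of the 27025, the others being H2-Q4 and H2-Q10. CCTAACCTGGGTCAG stood in these 4 alone, and TAAAGTCCACGC in 5 of the 27025. None of the 5 stretches stood in the promoters of H2-Q2, Tapbp or H2-DMb1, whose libraries had the same order. The stretches were found in these 4 promoters and then counted, so the counts are a description of related genes. Of the motifs set in the search list, CCAAT stood in 32 of the 38 promoters and in 37.9% of all 27025, and TGACG in 15 of 38 and in 21.0% of all. The interferon response motif stood in 3 (B2m, H2-T23 and H2-T22) and in 3.49% of all. Of the 2 forms of the κB motif searched, 1 stood in the promoter of B2m and in 0.144% of all, and the other in none of the 38 and in 0.0888% of all. Both strands were searched, and a match describes letters in this window alone.

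In the T region, H2-Bl is a class Ib gene first named from the blastocyst and is annotated as a polymorphic pseudogene at chr17:36080115-36084223 on the minus strand. It had 13 and 12 counts in dd, against 1 and 0 counts in ff. The dd libraries lay above both ff libraries, at a ratio, scaled for library size, of 29.9 with a 95% counting interval of 4.89 to 1227. H2-Bl passed the test over all 4 libraries (edgeR adjusted p = 0.0416). It no longer passed with ff replicate 1 left out (edgeR adjusted p = 0.124) or ff replicate 2 left out (edgeR adjusted p = 0.111), and with either dd library left out it stayed under the count filter. DESeq2's Wald test gave an adjusted p = 0.0593. In 50-base stretches, 9.40% of H2-Bl was shared with other genes.

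H2-T10 and H2-T22 encode class Ib molecules known as ligands of some γδ T cell receptors. H2-T10 had 17.5 and 25.2 CPM in dd, against 8.86 and 12.1 CPM in ff. Its groups did not overlap, and the log2 fold change was 1.03 ± 0.25 (edgeR adjusted p = 0.0771). DESeq2's Wald test called H2-T10 (adjusted p = 0.00574). H2-T22 had 56.2 and 80.4 CPM in dd, against 72.8 and 81.2 CPM in ff, with overlapping groups and a log2 fold change of -0.17 ± 0.19. H2-T23 encodes Qa-1, which presents class I leader peptides to an NK cell receptor. H2-T23 had 31.4 and 49.4 CPM in dd, against 53.0 and 57.4 CPM in ff. Both dd libraries of H2-T23 were the lower ones, at a log2 fold change of -0.45 ± 0.22 (edgeR adjusted p = 0.259). H2-T24 had 4.27 and 10.002 CPM in dd, against 3.94 and 4.53 CPM in ff, so that dd replicate 1 lay among the ff libraries; its log2 fold change was 0.76 ± 0.43, and it was 0.017 with dd replicate 2 left out and 1.25 with dd replicate 1 left out.

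In the M region, H2-M5 is a protein-coding class Ib gene at chr17:36984061-36989537 on the minus strand. H2-M5 had 1.95 and 2.05 CPM in dd, against 6.07 and 5.68 CPM in ff, from 46 and 62 counts in dd and 202 and 177 in ff. Replicates lay close together in both groups, and H2-M5 fell at a log2 fold change of -1.55 ± 0.22 (edgeR adjusted p = 0.0288). Leaving out any 1 library kept the log2 value between -1.60 and -1.51, but it then no longer passed, with edgeR adjusted p between 0.0558 and 0.103. The authors' deposited table has a fold of 0.340 for H2-M5 with an unadjusted p-value of 0.00176. No annotated gene lies opposite H2-M5. Its promoter, chr17:36989484-36989783 on the minus strand, is printed because H2-M5 was the gene of the set that fell, and none of the motifs searched or stretches shared by the class I promoters was found in its letters.
H2-M5: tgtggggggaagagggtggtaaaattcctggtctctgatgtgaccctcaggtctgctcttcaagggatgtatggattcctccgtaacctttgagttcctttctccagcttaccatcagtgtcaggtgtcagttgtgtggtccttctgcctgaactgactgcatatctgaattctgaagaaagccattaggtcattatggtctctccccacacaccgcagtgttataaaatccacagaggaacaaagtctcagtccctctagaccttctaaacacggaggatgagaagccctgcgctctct
H2-M3 presents peptides that begin with N-formylmethionine, as bacterial ones do. H2-M3 had 6.81 and 7.76 CPM in dd, against 9.22 and 10.02 CPM in ff, with both dd libraries lower and a log2 fold change of -0.40 ± 0.18 (edgeR adjusted p = 0.211).

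**Figure D2:**
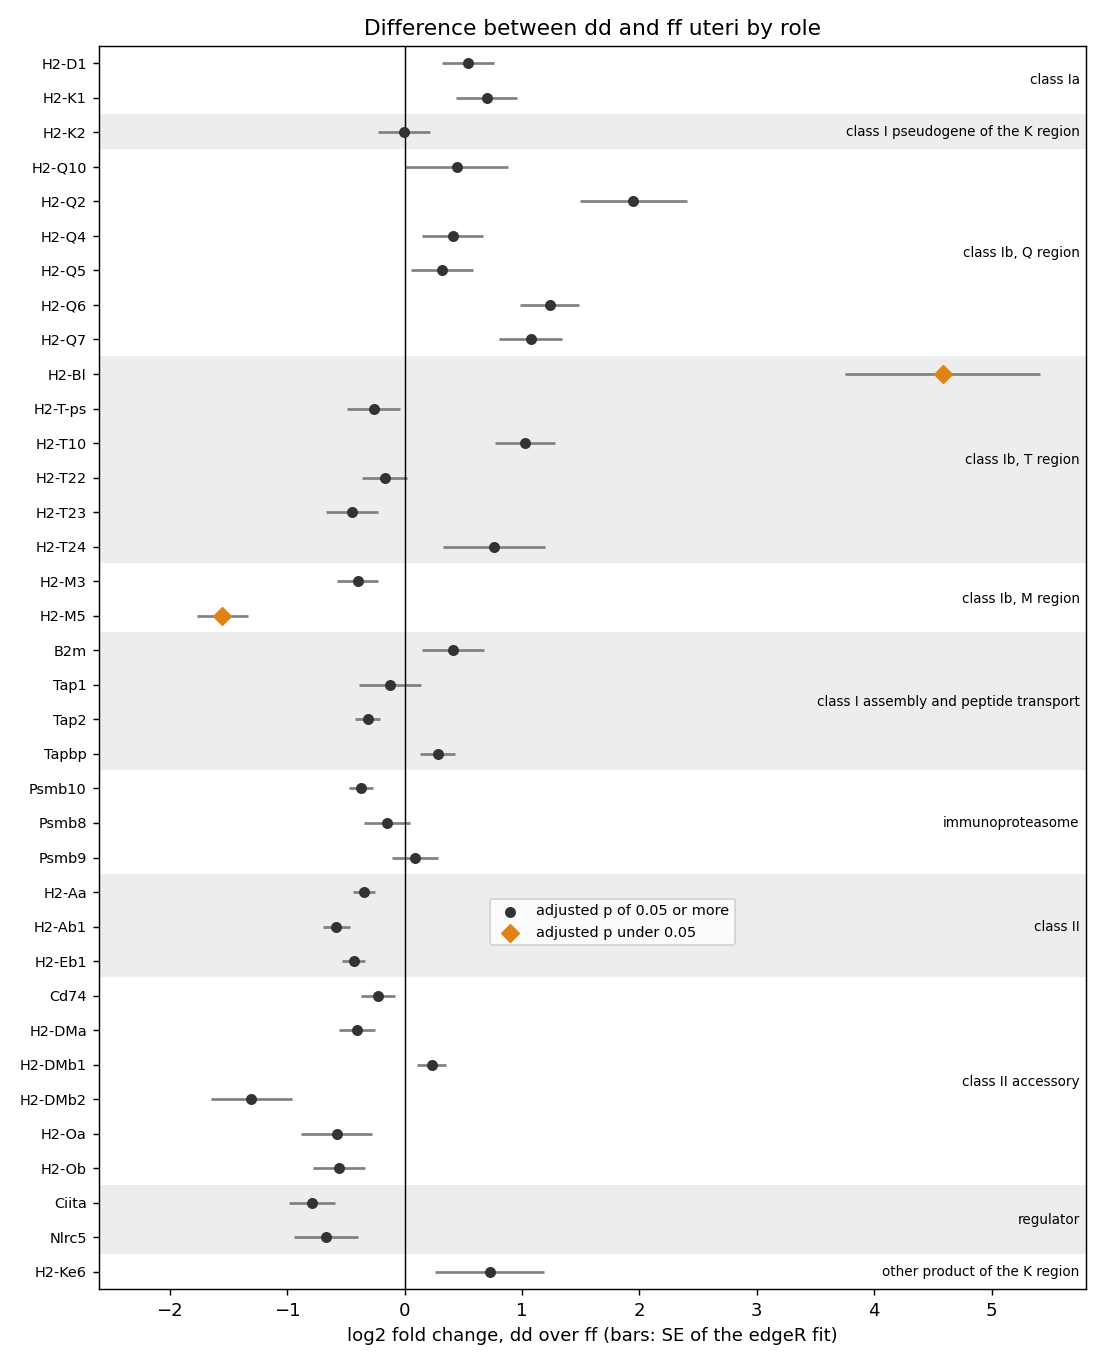
Log2 fold change of dd over ff for each tested gene, with the SE of the edgeR fit as bars and orange diamonds for the 2 genes that passed the test, H2-Bl and H2-M5. The 6 Q region genes lie right of 0 and the 3 class II chains left of it. The fitted value of H2-Bl rests on 1 ff count and depends on the prior count.

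The genes that supply class I with its light chain and peptides showed no common direction. B2m, the β2-microglobulin light chain, had 1135 and 1829 CPM in dd, against 1002 and 1227 CPM in ff. By the authors' FPKM, which divides by gene length, B2m ranked 18 and 10 among 54152 genes in the dd libraries, against 17 and 12 in the ff libraries. The B2m groups overlapped, and the log2 fold change of 0.41 ± 0.27 was 0.03 without dd replicate 2. Tapbp encodes tapasin, which holds class I molecules at the transporter. Tapbp had 190.4 and 216 CPM in dd, against 147 and 188 CPM in ff, the dd libraries being higher, at a log2 fold change of 0.28 ± 0.15 (edgeR adjusted p = 0.288).

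Tap1 and Tap2 encode the chains of the peptide transporter. Tap1 had 48.8 and 83.5 CPM in dd, against 67.5 and 77.2 CPM in ff, so the dd libraries were the lowest and the highest of the 4. Its log2 fold change was -0.13 ± 0.26 and turned to 0.21 without dd replicate 1. Tap2 had 34.7 and 38.5 CPM in dd, against 43.4 and 47.7 CPM in ff. Both dd libraries of Tap2 lay below the ff libraries, at a log2 fold change of -0.32 ± 0.11 (edgeR adjusted p = 0.134).

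Psmb8, Psmb9 and Psmb10 encode the catalytic subunits that replace Psmb5, Psmb6 and Psmb7 when the immunoproteasome forms. Psmb10 had 29.3 and 31.0 CPM in dd, against 37.0 and 41.1 CPM in ff. It was lower in both dd libraries, at a log2 fold change of -0.37 ± 0.11 (edgeR adjusted p = 0.0987). Psmb8 had 32.5 and 47.7 CPM in dd, against 44.0 and 44.9 CPM in ff, and Psmb9 had 25.6 and 36.1 CPM in dd, against 27.0 and 31.2 CPM in ff. For both, the dd libraries lay on either side of the ff libraries, at log2 fold changes of -0.15 ± 0.20 for Psmb8 and 0.09 ± 0.20 for Psmb9, and both signs turned when 1 library was left out.

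Set against its constitutive partner on the authors' FPKM scale, Psmb10 over Psmb7 was 1.09 and 1.13 in dd, against 1.63 and 1.92 in ff, so the groups of this ratio did not overlap. Psmb8 over Psmb5 was 0.116 and 0.232 in dd, against 0.144 and 0.183 in ff. Psmb9 over Psmb6 was 0.0923 and 0.128 in dd, against 0.121 and 0.148 in ff. The FPKM ratios of Psmb8 and Psmb9 overlapped between the groups. No test was run on these ratios, which are a description over 2 libraries per group.

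The class II chains are H2-Aa and H2-Ab1, the α and β chains of the A molecule, and H2-Eb1, the β chain of the E molecule. H2-Aa had 87.4 and 97.0 CPM in dd, against 114 and 120.1 CPM in ff. H2-Ab1 had 70.1 and 77.8 CPM in dd, against 102 and 119 CPM in ff. H2-Eb1 had 50.5 and 56.8 CPM in dd, against 70.7 and 74.3 CPM in ff. In all 3 genes both dd libraries were lower than both ff libraries, and replicates were close. The log2 fold change was -0.34 ± 0.10 for H2-Aa (edgeR adjusted p = 0.0938), -0.58 ± 0.12 for H2-Ab1 (edgeR adjusted p = 0.0520) and -0.43 ± 0.10 for H2-Eb1 (edgeR adjusted p = 0.0646). None of the 3 passed edgeR's test over all genes. All 3 had an unadjusted edgeR p under 0.05, as did 14.4% of all genes tested in the lower direction. DESeq2's Wald test called 2, H2-Ab1 and H2-Eb1. The authors' unadjusted p-values were larger, at 0.456 for H2-Aa, 0.208 for H2-Ab1 and 0.347 for H2-Eb1. With plain library sizes in place of TMM, edgeR called the same 2 (adjusted p = 0.0404 for H2-Ab1 and 0.0482 for H2-Eb1). With any 1 library left out, the log2 value of H2-Ab1 stayed between -0.69 and -0.47, that of H2-Eb1 between -0.52 and -0.34 and that of H2-Aa between -0.42 and -0.26.

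The promoter of H2-Aa, chr17:34287774-34288073 on the minus strand of GRCm38.p6 (RefSeq), is printed because it held the only TGACGTCA among the 38 promoters, a motif found in 1.88% of all. Class II promoters are known for a CRE-like X2 box followed by an inverted CCAAT box, and capitals mark TGACGTCA, which contains TGACG on both strands, and ATTGG.
H2-Aa: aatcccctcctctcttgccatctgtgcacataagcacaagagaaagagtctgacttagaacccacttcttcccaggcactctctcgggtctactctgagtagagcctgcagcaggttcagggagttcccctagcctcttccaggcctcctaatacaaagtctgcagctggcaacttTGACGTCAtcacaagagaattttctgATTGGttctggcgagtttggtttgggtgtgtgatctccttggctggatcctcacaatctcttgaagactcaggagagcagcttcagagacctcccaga

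Cd74, the invariant chain that guards the class II groove until peptide is loaded, had 173 and 221 CPM in dd, against 223 and 238 CPM in ff. Its dd libraries were the lower ones, dd replicate 2 only just, at a log2 fold change of -0.23 ± 0.15 (edgeR adjusted p = 0.360). H2-DMa and the H2-DMb chains form the molecule that exchanges peptides on class II. H2-DMa had 9.52 and 10.2 CPM in dd, against 12.2 and 13.9 CPM in ff, at a log2 fold change of -0.41 ± 0.16 (edgeR adjusted p = 0.169). H2-DMb1 had 16.2 and 16.8 CPM in dd, against 14.2 and 13.9 CPM in ff, the 1 class II accessory gene with both dd libraries higher, at a log2 fold change of 0.23 ± 0.13 (edgeR adjusted p = 0.289).

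H2-DMb2, named here after its values were seen, had 0.973 and 0.660 CPM in dd, against 1.71 and 2.31 CPM in ff. Its groups did not overlap, and the log2 fold change was -1.31 ± 0.35 (edgeR adjusted p = 0.0866). On the authors' FPKM scale H2-DMb2 over H2-DMb1 was 0.0578 and 0.0378 in dd, against 0.116 and 0.160 in ff. The split of counts between these 2 genes, which share sequence, is uncertain. H2-Ob encodes a chain of the O molecule, an inhibitor of DM. H2-Ob had 2.62 and 2.81 CPM in dd, against 3.94 and 4.08 CPM in ff, again with both dd libraries lower and a log2 fold change of -0.56 ± 0.22 (edgeR adjusted p = 0.174). Of the 9 class II and accessory genes, 8 had both dd libraries below both ff libraries, beside 31.3% of all genes tested, and the median log2 fold change of the 9 was -0.43.

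Both transactivators were lower in both dd libraries. Ciita, at chr16:10480059-10528418, had 3.89 and 3.60 CPM in dd, against 6.67 and 6.26 CPM in ff. Its replicates were close, and the log2 fold change was -0.79 ± 0.20 (edgeR adjusted p = 0.0789, DESeq2 adjusted p = 0.0487). The authors' unadjusted p-value for Ciita was 0.101. Nlrc5, at chr8:94434356-94527272, had 15.7 and 27.2 CPM in dd, against 33.9 and 34.5 CPM in ff. Here dd replicate 1 stood well below dd replicate 2, and the log2 fold change was -0.67 ± 0.27 (edgeR adjusted p = 0.183), between -1.13 and -0.32 with 1 library left out. In the libraries labelled dd, H2-K1, H2-D1, H2-Q6 and H2-Q7 had higher values, while H2-T23, H2-M3, H2-M5, Tap2 and Psmb10 had lower ones, as Nlrc5 did. The part of Nlrc5 in any of these values was not tested.

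Summed over the class I heavy chain genes, the dd libraries reached 1654 and 2648 CPM, against 1373 and 1455 CPM in ff. Summed over H2-Aa, H2-Ab1 and H2-Eb1, the dd libraries reached 207.9 and 231.6 CPM, against 286.5 and 313.8 CPM in ff. The ratio of the class I sum to the class II sum was therefore 7.96 and 11.4 in dd, against 4.79 and 4.64 in ff. The ratio did not overlap between the groups, and its range was wide in dd and narrow in ff.

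**Figure D3:**
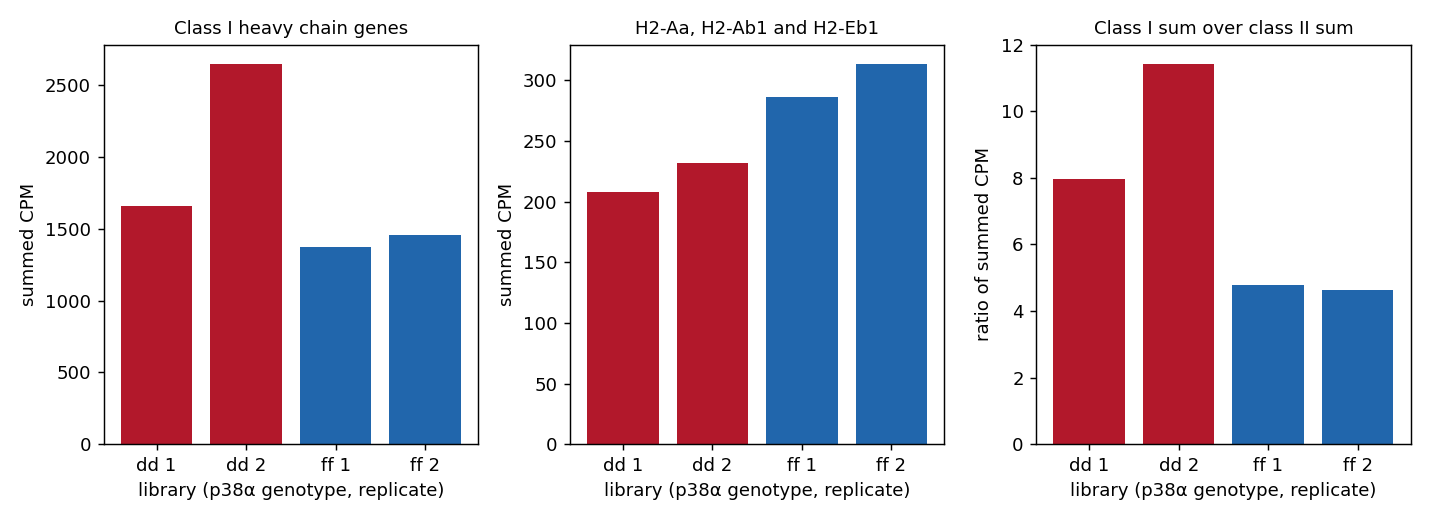
Bars give, per library, the summed CPM of the class I heavy chain genes, the summed CPM of H2-Aa, H2-Ab1 and H2-Eb1, and the ratio of the first sum to the second, with dd in red left of ff in blue. The ratio is 7.96 and 11.4 in the dd libraries and 4.79 and 4.64 in the ff libraries.

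In 7 genes of the class I route the 2 dd libraries stood further apart than the ff libraries did. The CPM of dd replicate 2 over that of dd replicate 1 was 1.66 for H2-K1, 1.52 for H2-D1, 1.66 for H2-Q6, 1.73 for H2-Q7, 1.61 for B2m, 1.71 for Tap1 and 1.74 for Nlrc5. The ratio of ff replicate 2 over ff replicate 1 was 1.05 for H2-K1, 1.05 for H2-D1, 1.04 for H2-Q6, 0.963 for H2-Q7, 1.22 for B2m, 1.14 for Tap1 and 1.02 for Nlrc5. These genes were picked after their values were seen, and other genes of the class I route went the other way. Among them were H2-Q2, H2-Q10 and H2-K2, with dd ratios of 1.07, 1.34 and 1.18 and ff ratios of 2.44, 2.01 and 1.22. Tapbp and Psmb10 were also among them, with dd ratios of 1.13 and 1.06 and ff ratios of 1.28 and 1.11. Tap2 had nearly equal ratios, 1.11 in dd and 1.10 in ff. For the class II chains the dd ratio was 1.11 for H2-Aa, 1.11 for H2-Ab1 and 1.13 for H2-Eb1. Stat2, an interferon signalling factor of the regulator list named here after its values were seen, had 51.6 and 80.1 CPM in dd, against 108 and 116 CPM in ff. For Stat2, too, dd replicate 1 was below dd replicate 2. The sums of B cell and of plasma cell markers were likewise higher in dd replicate 2. The 7 plasma cell markers summed to 789.5 and 1360 CPM in dd, against 622.9 and 429.9 CPM in ff. By edgeR's test 2 of the 7 were higher, while 3 had a log2 fold change below 0. Jchain alone had 439.5 and 894.6 CPM in dd, against 34.67 and 58.46 CPM in ff. Prdm1 had both dd libraries below both ff libraries, at a log2 fold change of -0.82. The 7 B cell markers summed to 9.52 and 18.1 CPM in dd, against 4.27 and 4.62 CPM in ff. Of the 4 tested, 2 were higher and 2 had a log2 fold change below 0. Over all genes tested, 4.52% were called higher. The part of B cells and plasma cells in the class I values was not tested.

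**Figure D4:**
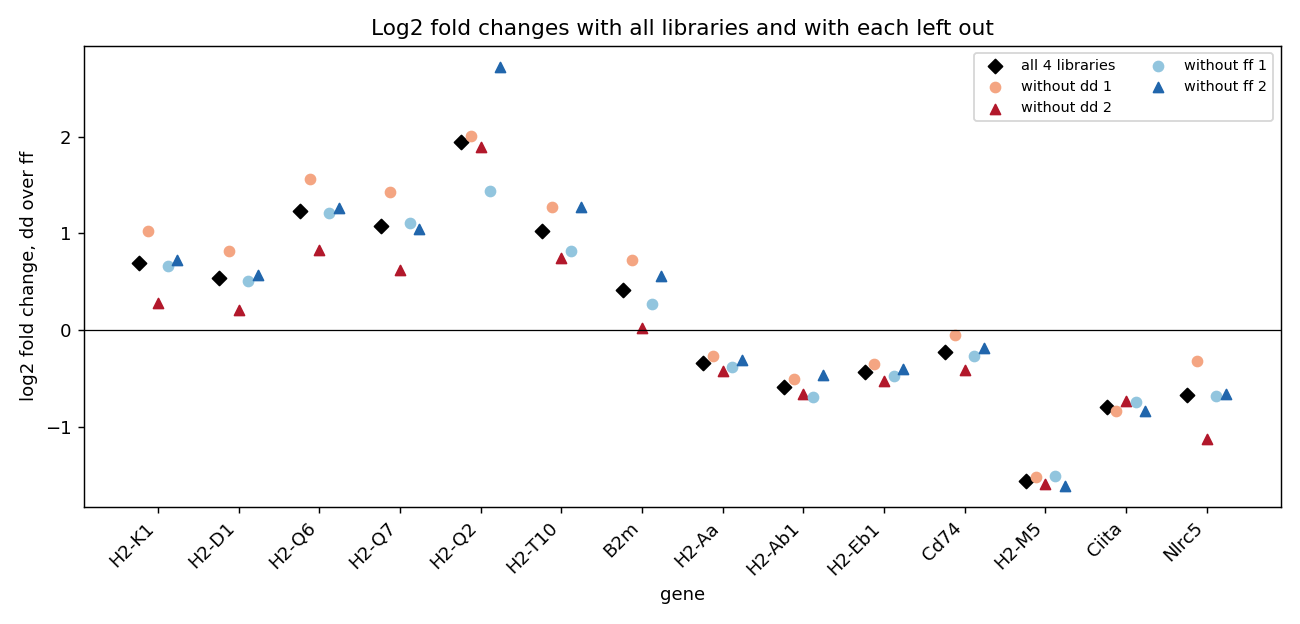
Log2 fold change of dd over ff for 14 genes, from all 4 libraries (black diamonds) and with each library left out in turn. Leaving out dd replicate 2 brings H2-K1 to 0.29, H2-D1 to 0.21 and B2m to 0.03, while H2-Ab1 stays between -0.69 and -0.47.

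Markers of cells that carry class II did not share 1 direction. The counts of called markers are to be read beside the 8.39% of all genes tested that were called. Of 10 macrophage markers 6 fell, C1qa among them at a log2 fold change of -0.90, while Cd14 had a log2 fold change of 1.09 (edgeR adjusted p = 0.0604). The 10 macrophage markers summed to 362 and 358 CPM in dd, against 394 and 469 CPM in ff. Of 9 dendritic cell markers 1 fell, Itgax at -1.19 (edgeR adjusted p = 0.0485), while 3 had a log2 fold change above 0, Clec10a at 1.404 among them (edgeR adjusted p = 0.0521). The 9 summed to 50.8 and 44.6 CPM in dd, against 63.0 and 59.9 CPM in ff. Of 4 tested B cell markers 2 rose, Cd79a at 3.07 and Cd79b at 1.97, while 2 had a log2 fold change below 0. Of 7 endothelial markers 7 fell, and they summed to 658 and 644 CPM in dd, against 1389.7 and 1231 CPM in ff. Of 8 epithelial markers 5 rose, and they summed to 2521 and 2898 CPM in dd, against 1056 and 1284 CPM in ff. Of 7 NK cell markers 3 fell, with sums of 31.0 and 19.2 CPM in dd, against 88.8 and 75.5 CPM in ff. Of 8 stromal markers 3 fell. No T cell or muscle marker passed edgeR's test or DESeq2's, and none of either list had an unadjusted p under 0.05. None of the listed markers was at 0 in all 4 libraries. The part of these cell types in the MHC values was not tested.

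Other genes of the pathway were counted in lists. Their counts are to be read beside the 8.39% of all genes called. Of 16 genes of class I assembly and peptide supply, 1 rose, which is 6.25%. It was Npepps, a cytosolic aminopeptidase that trims peptides. Npepps had 182 and 187 CPM in dd, against 113 and 124 CPM in ff, at a log2 fold change of 0.64 (edgeR adjusted p = 0.0294). Of 9 proteases and other proteins of the class II route, 1 fell, Lgmn, an endosomal protease. Lgmn had 59.1 and 58.2 CPM in dd, against 232 and 123 CPM in ff, with the ff libraries far apart. Its log2 fold change was -1.60 (edgeR adjusted p = 0.0476), and it did not pass by limma's voom (adjusted p = 0.0512). With 1 library left out the log2 value lay between -1.99 and -1.07, the smallest fall being without ff replicate 1.

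Of 20 tested regulators of MHC transcription, 1 rose and 1 fell, beside the 8.39% called over all genes. Ifngr2, a chain of the interferon-γ receptor, had 138 and 139 CPM in dd, against 68.4 and 82.96 CPM in ff, at a log2 fold change of 0.87 (edgeR adjusted p = 0.0277). Jak1, a kinase bound to that receptor, had 198 and 193 CPM in dd, against 397 and 307 CPM in ff, at a log2 fold change of -0.85 (edgeR adjusted p = 0.0402). The 2 groups were well separated for both genes. Of 8 tested MHC-like genes outside the H2 complex all 8 had a log2 fold change below 0, with a median of -0.59, and 1 fell. That was Procr, the endothelial protein C receptor, with 25.4 and 16.7 CPM in dd, against 53.7 and 59.7 CPM in ff, at a log2 fold change of -1.43 (edgeR adjusted p = 0.0319). Of 5 tested costimulatory genes none passed edgeR's or DESeq2's test or had an unadjusted p under 0.05. Leaving out 1 library moved these calls: of the 34 genes called over all lists, markers included, 11 were still called with dd replicate 1 left out, 7 with dd replicate 2 left out, 1 with ff replicate 1 left out and 24 with ff replicate 2 left out.

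The H2 genes lie on chromosome 17 between chr17:33974659 and chr17:37483552, 5226 kb beyond the end of Mapk14, which is on the same chromosome. Of 114 other genes tested between the outermost H2 genes, 9 rose and 4 fell, which is 11.4% beside 8.39% of all genes tested. H2-K2, a pseudogene near H2-K1, had 4.87 and 5.74 CPM in dd, against 4.81 and 5.84 CPM in ff, at a log2 fold change of -0.00 ± 0.22. H2-Q10, H2-T-ps, H2-Oa and H2-Ke6, the last of which encodes a hydroxysteroid dehydrogenase and no MHC molecule, had at most 3.82 CPM in any library. Their log2 fold changes lay between -0.58 and 0.72, the latter for H2-Ke6. H2-Ke6 shares 70.5% of its 50-base stretches with Gm20427, whose log2 fold change was -1.42. Of the 36 tested genes, 18 have another annotated gene opposite them on the other strand, among them B2m with Patl2 and Tap1 with Psmb9, and counts taken without strand could not separate such pairs.

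**Figure D5:**
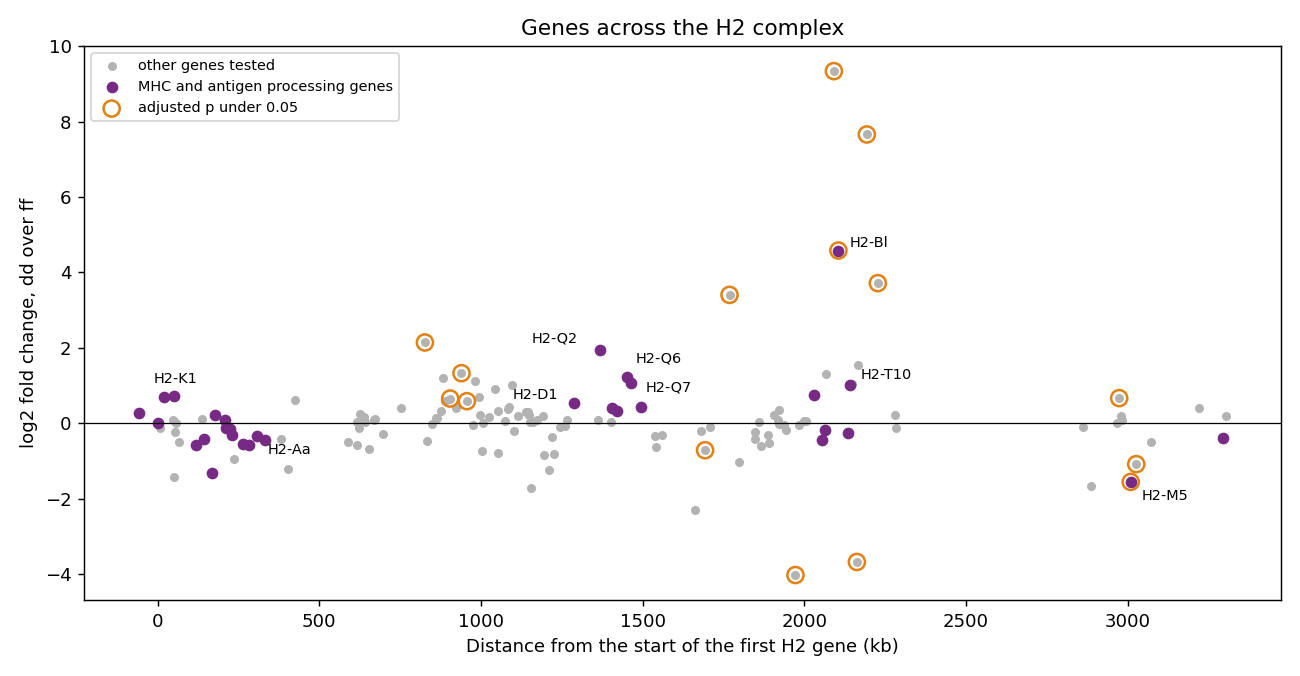
Log2 fold change of dd over ff for the tested genes across the H2 complex, against the distance in kb from the start of the first H2 gene, with the MHC set in purple, other genes in grey and orange rings around genes that passed the test. H2-Bl and H2-M5 are the ringed genes of the set, and 13 other genes are ringed, 9 above 0 and 4 below.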

How the data were processed

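Whole-uterus RNA was taken up in TRIzol and Illumina TruSeq libraries were built, per the labels' protocols, after a poly-A step per the series design text. STAR, edgeR and mm10 are named, without versions, per the submitters' processing notes. The sources used here do not give the counter, the annotation or the use of strand. The deposited table holds whole-number counts per library. Beside them it holds counts rescaled by the authors (a signal, left untested), FPKM per the file headers, and the authors' fold, a ratio of dd to ff. It also holds the authors' unadjusted p-value, with no test named.

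Counts were tested with edgeR 4.0.16 in R 4.3.3 (TMM, filterByExpr, quasi-likelihood test, Benjamini-Hochberg over 18530 genes, called at an adjusted p under 0.05), all 4 libraries, no block. Alternatives used other scalings and filters, DESeq2 1.42.0, voom of limma 3.58.1, a block for the replicate number and each library left out. The code was tested on simulated data. Depth was 24619850 to 32451670 counts, and counting intervals cover counting error only. Replicates differed beyond sampling noise (chi-square per degree of freedom of 32.6 in dd and 32.0 in ff), so each library counted once. Positions are GENCODE vM21, promoters RefSeq.

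Every gene of the set that passed the test was named with all values, as were tested class Ia, class II, loading, immunoproteasome and regulator genes and others with a mean count over 100; of each list, called genes were eligible. The genes and lists were chosen with earlier results of these data known.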

Additional observations from a re-analysis of the deposited data

How the results depend on the processing

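Over all genes tested, 1554 passed edgeR's test. The count was 2947 without a count filter, 2864 by DESeq2's Wald test, 10 at an adjusted p under 0.01, and 90 to 1198 with 1 library left out: 607 without dd replicate 1, 350 without dd replicate 2, 90 without ff replicate 1 and 1198 without ff replicate 2. Of the MHC genes 1 rose. The number was 5 without a filter and by DESeq2, 2 by voom, 0 with a filter of 1 CPM (H2-Bl is then not tested), 0 at an adjusted p under 0.01, and 0 to 3 with 1 library left out. Of the MHC genes 1 fell. The number was 3 with plain library sizes or upper quartile factors, 4 without a filter and by DESeq2, 0 at an adjusted p under 0.01, and 0 in each fit with 1 library left out, where fewer libraries enter the test; at an unadjusted p under 0.05 with all libraries 6 of 36 were higher and 9 lower, beside 14.9% and 14.4% of all genes tested. H2-Ab1 passed in 5 of 12 alternatives, H2-Q2 in 5, H2-Q6 in 4, H2-Eb1 in 4 and H2-M5 in 8.

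With the replicate number as a block, 1531 genes, 3 MHC genes higher and 2 lower passed, and H2-Bl did not (adjusted p = 0.0530). The labels give no link between same-numbered libraries beyond the number. Their deviations from the group means correlated at 0.0129. With 2 libraries per group both pairs give that value by construction, so it cannot show whether the libraries were paired.

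Of 428 alternative values of single MHC genes, 382 kept their sign and side of the threshold, 28 passed newly, 8 no longer passed and 10 turned sign. H2-K2 was at 0.0095 by voom and between -0.14 and 0.14 with 1 library left out. In such fits H2-Q4 ranged from -0.007 to 0.74, H2-Q5 from -0.10 to 0.65, H2-T22 from -0.45 to 0.0702, Psmb8 from -0.45 to 0.11, Psmb9 from -0.18 to 0.32 and Tap1 from -0.57 to 0.21, each with its lowest value without dd replicate 2 and its highest without dd replicate 1. Apart from the fits with fewer libraries or genes, the cause was not tested. Plain library sizes moved the median of all genes by -0.08 on the log2 scale.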

Other observations

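Around H2-Bl, between the start of H2-T24 and the end of H2-T3 (chr17:36005695-36190287), 6 genes outside the MHC set were tested, and 2 rose and 1 fell; they were looked up after the values of the region had been seen. Gm8810, an unprocessed pseudogene, had 32 and 123 counts in the libraries labelled dd, against 0 and 0 counts in those labelled ff (edgeR adjusted p = 0.0408). Gm20478, an antisense transcript, had 19 and 27 counts in dd, against 0 and 0 counts in ff (edgeR adjusted p = 0.0267). Gm9574, an unprocessed pseudogene, had 1 and 2 counts in dd, against 27 and 22 counts in ff (edgeR adjusted p = 0.0264). A little before H2-T24, the pseudogene Gm8801 had 9 and 5 counts in dd, against 154 and 128 counts in ff (edgeR adjusted p = 0.0218). Whether the mice behind the libraries shared 1 H2 haplotype was not tested, and it cannot be read from counts per gene.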
